A study of Mus musculus with 16 samples.

Results

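The unfolded protein response and the integrated stress response are represented here by 40 listed genes, which were matched to the count table by their symbols. Of these, 39 had a row among the 54347 genes of the table, and all 39 were among the 13150 genes that passed the filter on low counts. The remaining one, the antisense gene *Vldlr-as*, had no row of that name and is given no value. They comprise 14 chaperones and folding factors of the endoplasmic reticulum (ER), 4 genes of ER-associated degradation and 4 sensors and transcription factors of the unfolded protein response. The others are 6 transcription factors of the integrated stress response, 6 of its effectors and feedback genes, and 5 enzymes of serine, one-carbon and proline synthesis.

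Unfolded proteins in the ER are sensed by IRE1, encoded by *Ern1*, by PERK, encoded by *Eif2ak3*, and by ATF6. IRE1 splices the mRNA of *Xbp1*, and spliced XBP1 and cleaved ATF6 raise the transcription of chaperones and of the degradation machinery. PERK and the other eIF2α kinases slow general translation and at the same time favour translation of ATF4, which induces genes of amino acid synthesis and feedback genes such as *Ppp1r15a* and *Trib3*. In brown adipocytes these pathways have been linked to thermogenic stimulation, secretion and mitochondrial stress.

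The samples were brown adipocytes of wt1-SAM, a mouse cell line with built-in CRISPR activation machinery that raises transcription where a guide RNA directs it. All cells were differentiated with rosiglitazone, T3, dexamethasone, insulin, indomethacine and IBMX. They were then kept in rosiglitazone with insulin and after that in rosiglitazone. They were reverse transfected on day 4 with 250 ng of empty vector or of the sgRNA plasmids directed at the long noncoding RNA *Gm15551*. Cells of each plasmid were left as control or stimulated through β-adrenergic receptors, by 24 h with 1 µM of isoproterenol, and all were harvested on day 7. The 4 groups were thus empty vector control, empty vector isoproterenol, sgRNA control and sgRNA isoproterenol. Each group held 4 libraries, with the replicate numbers 3, 4, 5 and 6. All come from a single line, and nothing in the labels says that the replicates were separate cultures, so p-values measure the spread between these samples, which may be technical. The comparisons ask how stimulation and *Gm15551* activation change the transcriptome, here for the stress response genes.

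Total counts per library were between 9053521 and 16546187. A gene annotated as ribosomal RNA, *CT010467.1*, took 11.7% to 51.8% of them and 17.8% to 20.2% in the sgRNA control group. It took over 40% in 3 libraries, all with the empty vector. The counts on all other genes were 5900607 to 12959314 per library. Levels are CPM, counts scaled to a common library size by TMM, and log2 fold changes are edgeR estimates with a 95% interval in brackets. A gene counted as called where its adjusted p was below 0.05 and its estimate lay more than 0.5 from zero. Libraries of the same replicate number deviated together, with correlations from 0.224 to 0.613 across genes. Values with the replicate number as a block are given mainly where they move an adjusted p across 0.05. *Ucp1*, the uncoupling protein of brown fat, was at 0.0 to 0.979 CPM in control and 4.37 to 15.5 CPM in stimulated libraries. *Gm15551* was at 0.0 to 1.35 CPM with the empty vector and 1.04 to 3.92 CPM with the sgRNA plasmids. The 8 brown adipocyte markers summed to 8780 to 20800 CPM, and all were detected, but *Cidea*, *Prdm16* and *Ucp1* were low. The 6 preadipocyte markers summed to 14.1 to 117 CPM. Of the immune markers *Cd68* was at 6.29 to 22.3 CPM, while *Ptprc*, *Adgre1* and *Cd3e* were at or near 0.0.

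The upstream sequences show which of these genes carry the elements known for these responses. Windows of 250 bases before to 50 bases after the start site were taken from RefSeq on GRCm38.p6. They were at hand for 36 of the 39 members, as 38 windows, out of 32851 windows in all. Elements were searched for as exact matches only. The ER stress response element (CCAAT, 9 bases, CCACG; searched on both strands) is bound by NF-Y and ATF6. It was found in *Hspa5*, *Hsp90b1*, *Calr*, *Canx*, *Pdia6*, *Syvn1*, *Dnajc3* and *Creld2*, that is in 8 of 38 member windows and in 0.119% of all windows. *Hsp90b1* held it at 2 places. The related element ERSE-II (ATTGG, 1 base, CCACG) was found in *Herpud1* and *Dnajb11* and in 0.0365% of all windows. Capitals mark the letters of the element, and 8 bases are shown on either side, with the stretches of *Dnajc3* and *Creld2* left out:
*Hspa5* at chr2:34772017-34772051, forward strand: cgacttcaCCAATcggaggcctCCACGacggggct
*Hsp90b1* at chr10:86705630-86705664, reverse strand: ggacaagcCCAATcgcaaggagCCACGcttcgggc
*Hsp90b1* at chr10:86705525-86705559, forward strand: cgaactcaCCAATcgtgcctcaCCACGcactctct
*Calr* at chr8:84847067-84847101, forward strand: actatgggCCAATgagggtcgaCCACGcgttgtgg
*Canx* at chr11:50325792-50325826, reverse strand: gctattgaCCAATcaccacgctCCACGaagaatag
*Pdia6* at chr12:17266483-17266517, forward strand: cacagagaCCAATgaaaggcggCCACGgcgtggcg
*Syvn1* at chr19:6046524-6046558, forward strand: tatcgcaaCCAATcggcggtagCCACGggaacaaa
*Herpud1* at chr8:94386369-94386395, forward strand: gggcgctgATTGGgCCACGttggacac
*Dnajb11* at chr16:22857844-22857870, forward strand: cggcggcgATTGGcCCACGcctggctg
In *Hspa5* the element began 65 bases before the start site, and in *Syvn1* 44 bases before it. In *Dnajb11* it lay 8 bases after the start site. The XBP1 element TGACGTGG was found in 0 member windows and in 0.676% of all windows.

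The genes downstream of ATF4 are known for another element, the C/EBP-ATF element, searched here as TGATGNAA on both strands. It was found in *Atf3*, *Asns*, *Chac1*, *Nupr1*, *Trib3* and *Herpud1*, 6 of the 38 member windows, and in 3.97% of all windows. The cyclic AMP response element TGACGTCA, of interest because β-adrenergic receptors signal through cyclic AMP, was found in *Ppp1r15a* alone among the members and in 1.79% of all windows. It began 12 bases before the start site of *Ppp1r15a*. Capitals again mark the fixed letters of each element:
*Atf3* at chr1:191183428-191183451, forward strand: ggacttggTGATGcAAgtgcgaga
*Asns* at chr6:7693217-7693240, reverse strand: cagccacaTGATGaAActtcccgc
*Chac1* at chr2:119351041-119351064, reverse strand: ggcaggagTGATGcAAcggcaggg
*Nupr1* at chr7:126625565-126625588, forward strand: gccctgtcTGATGcAAtctggccc
*Trib3* at chr2:152344031-152344054, forward strand: cgcccggcTGATGtAAacctgagc
*Herpud1* at chr8:94386309-94386332, reverse strand: gtgcgggcTGATGcAAcccgccgt
*Ppp1r15a* at chr7:45526265-45526288, reverse strand: ctctccggTGACGTCAgcacagcg
These matches are descriptions of sequence, and binding was not measured. No window was at hand for *Hyou1*, *Manf* or *Atf6*.

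**Figure D1:**
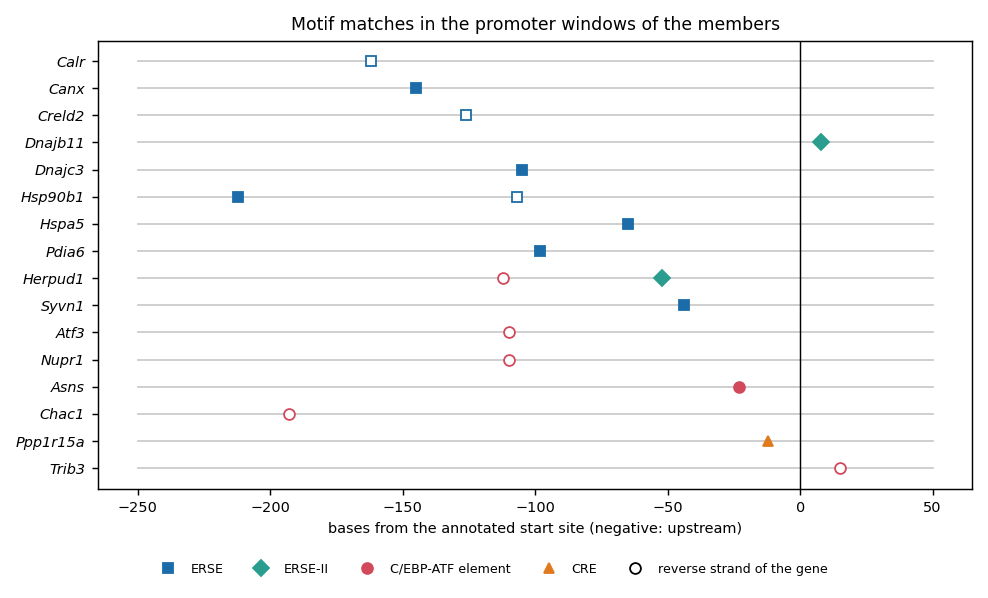
Positions of the sequence elements in the promoter windows of the members, with the x axis in bases from the RefSeq start site and 1 line per member. Filled symbols read on the gene's own strand and open symbols on the other one; the elements of the ER stress response are in chaperone and degradation genes, and the C/EBP-ATF elements mostly in genes of the integrated stress response.

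The 2 members with the lowest adjusted p for isoproterenol, *Pdia4* and *Phgdh*, held no exact match to any of the 5 elements in their windows. Their upstream sequences are therefore shown in full beside that of *Hspa5*, up to the base before the start site and in the direction of transcription. The ER stress response element of *Hspa5* is in capitals:
*Hspa5* upstream at chr2:34771840-34772089, forward strand: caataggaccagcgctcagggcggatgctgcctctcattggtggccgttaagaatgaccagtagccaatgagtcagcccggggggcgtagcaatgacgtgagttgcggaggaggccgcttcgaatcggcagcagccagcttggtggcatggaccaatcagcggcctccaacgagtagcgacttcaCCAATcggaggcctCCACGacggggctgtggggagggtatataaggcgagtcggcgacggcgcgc
*Pdia4* upstream at chr6:47813513-47813762, reverse strand: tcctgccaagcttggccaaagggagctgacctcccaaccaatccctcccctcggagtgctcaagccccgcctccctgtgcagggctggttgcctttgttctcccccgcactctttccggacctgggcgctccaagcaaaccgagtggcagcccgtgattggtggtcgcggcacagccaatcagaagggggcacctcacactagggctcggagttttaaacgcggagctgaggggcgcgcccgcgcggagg
*Phgdh* upstream at chr3:98339970-98340219, reverse strand: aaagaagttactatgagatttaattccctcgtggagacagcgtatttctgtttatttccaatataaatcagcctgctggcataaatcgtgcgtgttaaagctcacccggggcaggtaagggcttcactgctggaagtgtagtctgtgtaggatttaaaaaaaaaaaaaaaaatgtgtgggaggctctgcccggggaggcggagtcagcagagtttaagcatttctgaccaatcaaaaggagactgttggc
In *Pdia4* the stretch agtggcagcccgtgattgg, read on the other strand, differed from the ER stress response element in its last letter alone. The 250 bases before *Pdia4* had a GC content of 65.2% and held CCAAT 3 times on either strand. *Hspa5* had a GC content of 62.4% and 4 such pentamers, and *Phgdh* a GC content of 44.0% and 2 of them.

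In unstimulated and stimulated cells alike the members ranged widely in level. On the scale of CPM per kilobase of exon (RPKM, mean over all 16 libraries), *Atf4*, the central transcription factor of the integrated stress response, was highest at 172 ± 15.4 (SD, n = 16). The lectin chaperone *Calr* at 143, the Hsp70 chaperone *Hspa5* (BiP) at 140, *Psat1*, an enzyme of serine synthesis, at 140 and *Hsp90b1* (GRP94) at 133 RPKM followed, and each of these 5 overlapped its neighbours in this order over the libraries. The stress-induced factors were lower, with *Nupr1* at 23.6, *Trib3* at 23.6, *Ddit3* (CHOP) at 23.1, *Xbp1* at 20.7, *Ddit4* at 17.3, *Ppp1r15a* (GADD34) at 15.9 and *Atf3* at 13.1 RPKM. The sensors were low, with *Atf6* at 5.45 RPKM, and *Eif2ak3* at 1.99 and *Ern1* at 1.89 RPKM had the lowest levels of the set. The lowest count of any member in any library was 70, for *Sdf2l1*, a cofactor of the BiP system.

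Under isoproterenol, averaged over both plasmids, *Pdia4* and *Phgdh* were lower by the adjusted p, by less than the size limit. Leaving out 1 library or replicate number at a time without the block, *Pdia4* stayed below an adjusted p of 0.05 in 20 of 20 fits and *Phgdh* in 6 of 20. No member was called in either direction, by edgeR with or without the replicate block or by DESeq2, against 1.33% of all tested genes called higher and 1.32% called lower. At an unadjusted p under 0.05 there were 3 members without and 14 with the block. All tested genes had 17.7% and 33.5% at that p, so the members' count was below the background without the block and near it with the block. By the adjusted p alone, without the size limit and without the block, *Pdia4* and *Phgdh* were lower and no member was higher. Of all tested genes 2.43% were lower and 2.06% higher in that fit. With the block *Pdia4*, *Phgdh*, *Psat1* and *Trib3* were lower and *Atf4*, *Manf*, *Pdia3* and *Ddit4* higher by the adjusted p alone. In the blocked fit 10.4% of all tested genes were lower and 10.9% higher. Without the block 14 of the 39 members had a higher and 25 a lower estimate, with a median log2 fold change of -0.06 and a range from -0.46 to 0.37. That median lay between -0.08 and -0.01 when 1 library or number was left out. The median over all tested genes was 0.00. For 31 of the 39 members the 95% interval lay within 0.5 of zero on the log2 scale, which held for 7613 of the 13150 tested genes. Some cell type markers were called under isoproterenol. The brown adipocyte sum was 12000 to 20800 CPM in empty vector control, 8780 to 16400 CPM in empty vector isoproterenol, 15100 to 19500 CPM in sgRNA control and 9210 to 18400 CPM in sgRNA isoproterenol libraries. Most of it was *Fabp4*, at 8210 to 19500 CPM. By edgeR, 3 of the 8 markers were higher, of which *Ucp1* (4.03) and *Ppargc1a* (0.71) were called, and 5 were lower, of which *Adipoq* (-1.06) was called. With the block *Cidea* (1.20) was called higher and *Plin1* (-0.57) lower as well. Of the 3 preadipocyte markers tested, *Ly6a* was called higher with the block (1.09, adjusted p = 4.92e-06). *Cd68*, the only immune marker tested, was called higher (0.91, adjusted p = 0.00518 by edgeR, and 0.92, adjusted p = 2.56e-07 with the block). The sum of the 4 immune markers, nearly all *Cd68*, was 7.66 to 13.8, 14 to 22.4, 6.44 to 13.3 and 13.2 to 21.7 CPM in these groups. The part of the cell type markers in the members' values was not tested. In bulk RNA, fewer cells of a type and less RNA per cell cannot be told apart, and this holds for every level given here.

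*Pdia4* encodes ERp72, a protein disulfide isomerase that forms and rearranges disulfide bonds in ER clients. With the empty vector it was at 173, 156, 155 and 154 CPM in the control libraries of replicates 3, 4, 5 and 6, and at 135, 111, 109 and 115 CPM after isoproterenol. With the sgRNA plasmids it was at 171, 136, 148 and 145 CPM in control and at 113, 107, 101 and 111 CPM after isoproterenol. The 8 stimulated libraries, from 101 to 135 CPM, all lay below the 8 control libraries, from 136 to 173 CPM. No other member had such a gap, and 0.76% of all tested genes were lower without overlap in this way. The log2 fold change was -0.46 (SE 0.07, 95% interval -0.59 to -0.32, adjusted p = 0.000695), a level 1.37-fold lower. It was -0.45 with the block (adjusted p = 1.27e-06). The stimulated library of each plasmid and number was below its control in 8 of 8 pairs.

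Within each plasmid the stimulated mean of *Pdia4* was the lower one, and the tests there were less firm than that of the average. Group means were 159 ± 9.13 and 118 ± 11.9 CPM (SD, n = 4) in control and stimulated empty vector cells, and 150 ± 14.9 and 108 ± 5.29 CPM in sgRNA cells. The log2 fold change was -0.44 (adjusted p = 0.0324 by edgeR) with the empty vector, and by the adjusted p alone 0.433% of all tested genes were lower there. With the sgRNA plasmids it was -0.47 (adjusted p = 0.0245), and 0.319% of all tested genes were lower. The interaction estimate was -0.03 (95% interval -0.31 to 0.25, adjusted p = 1). Under the size limit no member was called in empty vector cells, where 0.456% of all tested genes were higher and 0.373% lower, or in sgRNA cells, where 0.403% were higher and 0.297% lower. At an unadjusted p under 0.05 there were 4 of 39 members in empty vector and 2 in sgRNA cells, beside 10.1% and 8.46% of all tested genes. Both within-plasmid adjusted p-values missed the threshold without the filter on low counts, at 0.126 and 0.0853. When 1 library or 1 replicate number was left out without the block, the adjusted p stayed below 0.05 in 10 of 20 fits with each plasmid and reached 0.335 with the empty vector and 0.162 with the sgRNA plasmids. With the empty vector it was lost without control replicate 3, 4 or 5, without isoproterenol replicate 4, 5 or 6, and without any 1 of the 4 replicate numbers. With the sgRNA plasmids it was lost without control replicate 3 or 5, without isoproterenol replicate 3, 4, 5 or 6, and again without any 1 replicate number. With the block it was below 0.05 in 4 of 4 fits with either plasmid.

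The other protein disulfide isomerases of the set did not pass the test without the block. *Pdia3* (ERp57), which works on glycoproteins with calnexin and calreticulin, was at 128 to 188 CPM in control and 142 to 206 CPM in stimulated libraries, which overlapped. Its log2 fold change was 0.16 (SE 0.09, adjusted p = 0.392, and 0.0331 with the block), and it was higher in 7 of 8 pairs. For *Pdia6* the estimate was -0.07 (95% interval -0.22 to 0.08). Whether *Pdia4* differs from these genes in its response was not tested.

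Among all 14 chaperones, the disulfide isomerases included, 8 estimates were above zero and 6 below. *Hspa5* was at 591, 650, 446 and 558 CPM in empty vector control libraries and at 645, 622, 537 and 555 CPM after isoproterenol. In sgRNA cells it was at 550, 644, 574 and 555 CPM in control and 648, 686, 621 and 566 CPM after isoproterenol. The groups overlapped with either plasmid, and the log2 fold change was 0.09 (95% interval -0.08 to 0.27, adjusted p = 0.630). *Hsp90b1* had 0.11, *Calr* 0.09, *Dnajc3*, an inhibitor of PERK and BiP cochaperone, 0.09 and *Canx* 0.06 on the same scale. With 1 library or number left out and no block, *Hsp90b1* ranged from 0.06 to 0.16 and *Calr* from 0.02 to 0.15. *Dnajc3* then ranged from 0.06 to 0.15 and *Canx* from 0.02 to 0.09. *Hyou1*, a nucleotide exchange factor of BiP, had 0.19 (SE 0.07, adjusted p = 0.160). *Manf*, a secreted ER stress protein, was at 73.9 to 104 CPM in control and 77.6 to 134 CPM in stimulated libraries. Its log2 fold change was 0.20 (SE 0.11, adjusted p = 0.336, and 0.0243 with the block), with 7 of 8 pairs higher. Summed over the 14 chaperones, levels were 2330 to 3000 CPM in empty vector control and 2600 to 3100 CPM in empty vector isoproterenol libraries. In sgRNA cells the sums were 2670 to 2820 CPM and 2730 to 3020 CPM, so that the ranges overlapped again.

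The enzymes of serine and one-carbon synthesis, which ATF4 is known to induce, all had estimates below zero. *Phgdh* encodes the first enzyme of serine synthesis from glycolytic intermediates. It was at 113, 133, 102 and 89.5 CPM in empty vector control libraries of replicates 3 to 6, and at 70.7, 101, 80.9 and 73.1 CPM after isoproterenol. In sgRNA cells it was at 120, 140, 94.4 and 114 CPM in control and 89.7, 103, 72.6 and 79.3 CPM in stimulated libraries. Levels overlapped between treatments, replicate 4 was the highest library of every group, and each stimulated library was below the control of its own number. The log2 fold change was -0.44 (SE 0.11, 95% interval -0.67 to -0.20, adjusted p = 0.0329), a level 1.35-fold lower, and -0.43 with the block (SE 0.06, adjusted p = 6.39e-05). Within empty vector cells it was -0.43 (adjusted p = 0.301, and 0.00351 with the block), and within sgRNA cells -0.44 (adjusted p = 0.333, and 0.00256 with the block). Without the 3 libraries with over 40% ribosomal RNA, an alternative chosen after seeing the data, it was -0.40 (adjusted p = 0.164). In the 20 fits that left out 1 library or number the adjusted p ranged from 0.0171 to 0.293, and with the block it stayed below 0.05 in 4 of 4.

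*Psat1*, the next enzyme of the pathway, was at 469 to 782 CPM in control and 442 to 657 CPM in stimulated libraries. It was lower in 8 of 8 pairs, with a log2 fold change of -0.22 (95% interval -0.51 to 0.07, adjusted p = 0.438, and 0.00281 with the block). *Mthfd2*, a mitochondrial enzyme of folate metabolism, was also lower in 8 of 8 pairs, yet its estimate was -0.09 (95% interval -0.23 to 0.06, adjusted p = 0.560). Its levels were 196 to 232 CPM in control and 181 to 230 CPM in stimulated libraries. With the block 4 members were lower by the adjusted p alone (*Pdia4*, *Phgdh*, *Psat1* and *Trib3*), and 4 were higher (*Atf4*, *Manf*, *Pdia3* and *Ddit4*). In that fit 10.4% of all tested genes were lower and 10.9% higher. None of the 8 passed the size limit, which with the block 2.61% of all tested genes passed downward and 3.09% upward.

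**Figure D2:**
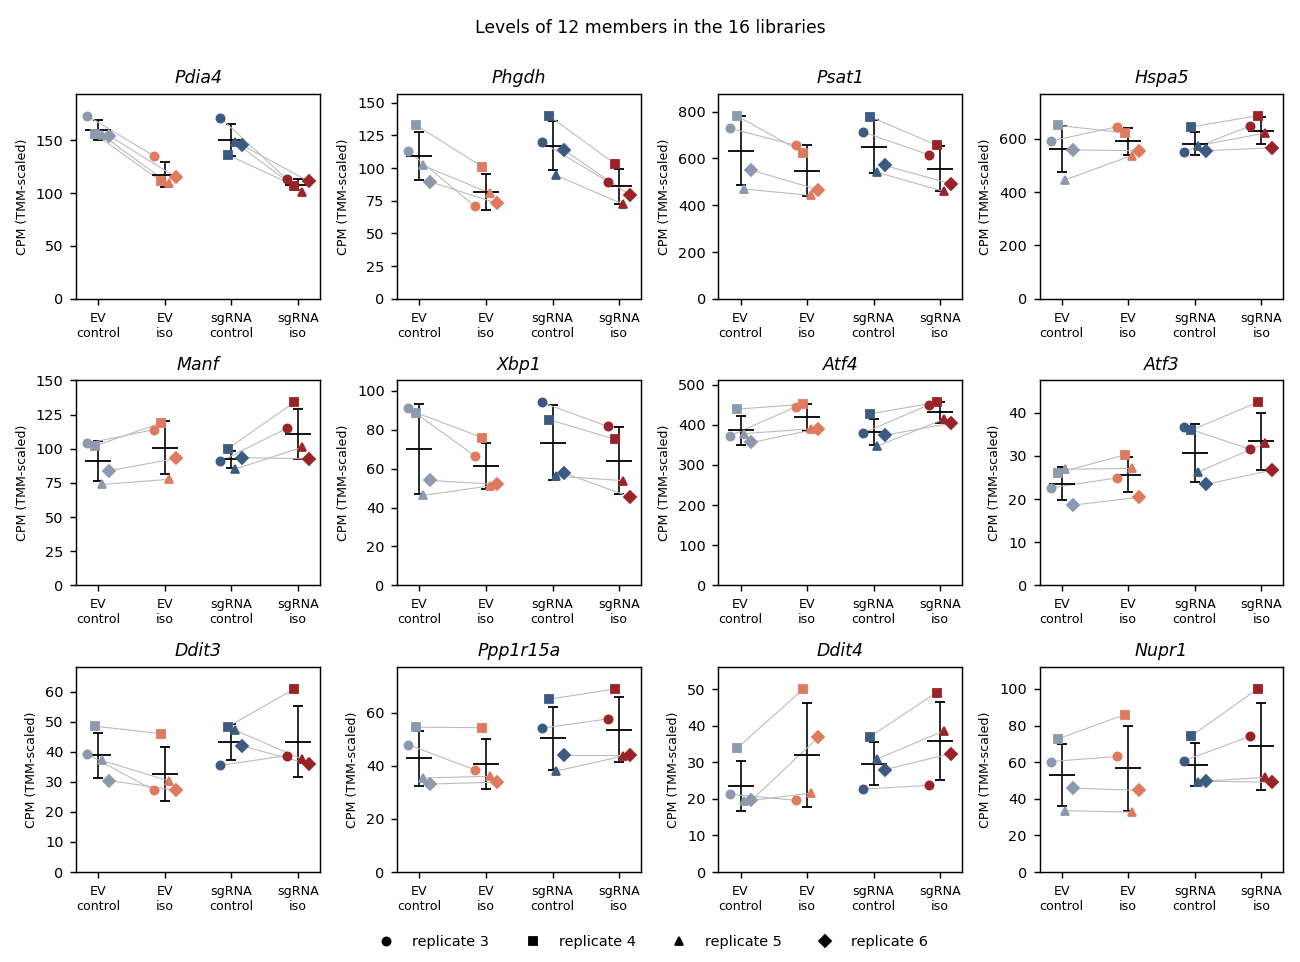
Levels of 12 members in CPM on the y axis of each panel, by group on the x axis, with 1 symbol shape per replicate number, black bars for the mean ± SD of 4 libraries and grey lines that join control and isoproterenol libraries of the same number. *Pdia4* lies at 136 to 173 CPM in control and 101 to 135 CPM in stimulated libraries, whereas *Nupr1* and *Xbp1* were spread by replicate number within every group.

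*Atf4* mRNA was at 372, 439, 378 and 356 CPM in empty vector control libraries and at 445, 451, 390 and 390 CPM in stimulated ones. In sgRNA cells the control libraries had 379, 427, 347 and 374 CPM and the stimulated ones 450, 456, 414 and 404 CPM. Each stimulated library was above its paired control, 8 of 8, though the groups overlapped. The estimate was 0.15 (SE 0.07, 95% interval 0.00 to 0.30, adjusted p = 0.292, and 0.0226 with the block). Transcript levels do not report on the translation of *Atf4*, by which it is mainly controlled. The other transcription factors of the integrated stress response had estimates of 0.16 for *Nupr1*, 0.13 for *Atf3*, -0.09 for *Cebpg*, -0.12 for *Ddit3* and -0.20 for *Atf5*, with adjusted p-values from 0.483 to 0.763. These moved when 1 library or number was left out, from 0.02 to 0.26 for *Nupr1*, from 0.05 to 0.19 for *Atf3*, from -0.24 to -0.06 for *Ddit3* and from -0.42 to -0.06 for *Atf5*.

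Of the effectors, *Ddit4* (REDD1), an inhibitor of mTORC1, had the highest estimate of all members. It was at 21.3, 33.8, 19.3 and 19.6 CPM in empty vector control and at 19.6, 50.1, 21.6 and 36.8 CPM in empty vector isoproterenol libraries. In sgRNA cells it was at 22.7, 37.0, 30.9 and 28.0 CPM in control and 23.7, 49.1, 38.6 and 32.4 CPM in stimulated libraries. Replicate 4 was high and replicate 3 low after stimulation with either plasmid, and the groups overlapped. The log2 fold change was 0.37 (95% interval -0.07 to 0.80, adjusted p = 0.381, and 0.0384 with the block), with 7 of 8 pairs higher. It ranged from 0.21, without empty vector isoproterenol replicate 4, to 0.48, without empty vector control replicate 4. With the block it was below an adjusted p of 0.05 in 2 of 4 fits that left out a number, and missed it without replicate 4 and without replicate 6. In empty vector cells the estimate was 0.45 (adjusted p = 0.669), and from 0.14 to 0.69 when 1 library or number was left out. It was called there in 2 blocked fits chosen after seeing the data, at 0.64 without the libraries high in ribosomal RNA and at 0.62 with the covariate for it. *Trib3*, a pseudokinase that restrains ATF4, had -0.18 (SE 0.15, adjusted p = 0.599, and 0.0217 with the block). *Asns*, asparagine synthetase, had -0.10 and *Sesn2*, a stress-induced inhibitor of mTORC1, -0.18.

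No sensor and no degradation gene passed the test. *Ern1*, from 12.1 to 17.9 CPM over all libraries, had an estimate of 0.17 (SE 0.08, adjusted p = 0.287), *Eif2ak3* -0.11 and *Atf6* -0.08. When 1 library or number was left out without the block, they lay at 0.12 to 0.25, -0.22 to -0.01 and -0.13 to -0.04. *Xbp1* was at 46.2 to 94.0 CPM in control and 45.5 to 81.6 CPM in stimulated libraries, with an estimate of -0.19 (95% interval -0.57 to 0.18, adjusted p = 0.637) and lower levels in 7 of 8 pairs. Gene counts do not show whether *Xbp1* mRNA was spliced. All 4 degradation genes had estimates below zero, among them -0.12 for *Sel1l* and -0.11 for *Syvn1*, the adaptor and the ubiquitin ligase of one complex, and -0.08 for *Edem1*. The interval lay within 0.5 of zero for each of the 4. Without 1 library or number and with no block, *Sel1l* was at -0.18 to -0.06, *Syvn1* at -0.21 to -0.05 and *Edem1* at -0.15 to -0.01.

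The remaining members had nearly the same range of levels with and without isoproterenol. Of the BiP cochaperones, *Dnajb11* was at 52.4 to 80.3 CPM in control and 53.5 to 79.7 CPM in stimulated libraries, and *Dnajb9* at 24.7 to 39.6 and 21.9 to 40.4 CPM. *Sdf2l1* was at 8.0 to 18.6 and 7.34 to 17.7 CPM. *Creld2*, an ER protein released under stress, was at 28.8 to 44.4 and 28.6 to 43.3 CPM. *Herpud1*, which recruits substrates to the degradation complex, was at 29.7 to 38.1 and 28.2 to 39.9 CPM. None of these passed the test, and the adjusted p of each was above that of *Pdia6*. *Chac1*, an enzyme that degrades glutathione, was at 11.2 to 20 and 10.7 to 19.9 CPM. The mitochondrial serine hydroxymethyltransferase *Shmt2* was at 53.3 to 76.2 and 50.9 to 85.6 CPM, and *Aldh18a1*, the first enzyme of proline synthesis, at 31.2 to 54.0 and 31.9 to 49.1 CPM. In each the groups overlapped over most of their range.

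**Figure D3:**
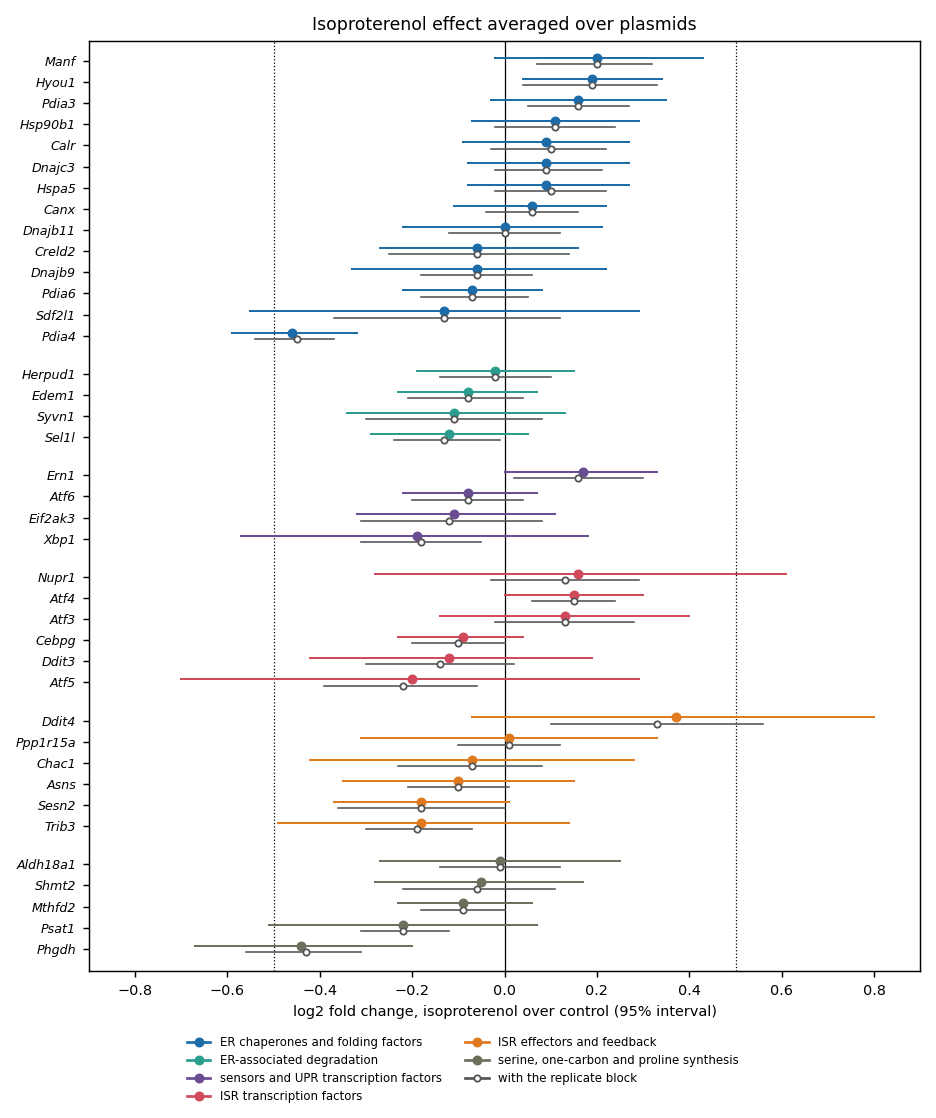
Log2 fold change of isoproterenol over control on the x axis, averaged over both plasmids, for the 39 members grouped by role. Filled points are estimates without and open points with the replicate block, lines are 95% intervals, and dotted lines mark -0.5 and 0.5; *Pdia4* and *Phgdh* lie farthest left at -0.46 and -0.44, and *Ddit4* farthest right at 0.37.

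Beyond the listed members, 139 other genes of these pathways were tested, among them further ER folding and export genes, aminoacyl-tRNA synthetases, eIF2 and its kinases, amino acid transporters and further ATF4 targets. Of these, 2 were called under isoproterenol, both higher, which is 1.44% and near the 1.33% of all tested genes called higher. *Fgf21*, a hormone of energy metabolism known as an ATF4 target, was at 56.6 to 93.5 CPM in control and 88.0 to 134 CPM in stimulated libraries, an estimate of 0.67 on the log2 scale (SE 0.11, adjusted p = 0.00225). *Got1*, the cytosolic aspartate aminotransferase, was at 35.6 to 52.2 CPM in control and 58.6 to 69.3 CPM in stimulated libraries, without overlap, which 0.7% of all tested genes showed in that direction (log2 fold change 0.51, SE 0.08, adjusted p = 0.00153). With the block 3 more passed, so that 5 of 139, or 3.6%, were called, against 5.7% of all tested genes. *Fkbp11*, a prolyl isomerase of the secretory pathway, was higher at 0.76 (adjusted p = 0.000296), and the glutamine transporter *Slc1a5* was lower at -0.60. *Bbc3* (PUMA), a proapoptotic gene, was lower at -0.65 (adjusted p = 0.0262). *Vldlr*, the neighbour of the missing antisense gene, had 0 to 20 counts per library and was not tested.

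For the sgRNA effect, averaged over both treatments, no member was called with or without the block, or by DESeq2. Without the block 0.0% of all tested genes were called higher and 0.0% lower, and with it 0.0456% and 0.221%. At an unadjusted p under 0.05 there was 1 member, *Atf3*, without the block and 7 with it, beside 3.32% and 11.5% of all tested genes. The members' estimates ranged from -0.11 to 0.38 with a median of 0.05, against -0.01 over all tested genes, and 30 were above and 9 below zero. Of all 13150 tested genes 6182 were above zero. By role, the estimates above zero were 4 of 4 sensors, 6 of 6 transcription factors and 6 of 6 effectors of the integrated stress response, 3 of 4 degradation genes, 4 of 5 enzymes and 7 of 14 chaperones. Whether the roles differ was not tested, and *Nupr1*, *Ddit4* and *Trib3* turned to -0.29, -0.18 and -0.10 with a covariate for ribosomal RNA. Without the block no cell type marker passed for the plasmid. All 8 brown adipocyte markers had sgRNA estimates above zero, with a median of 0.15, and 1 of them, *Cidea*, was called with the block (1.05, adjusted p = 0.0348). Of the 3 preadipocyte markers tested, 1, *Ly6a*, was called lower with the block (-0.74, adjusted p = 0.00491). The part of these markers in the members' estimates was not tested. The ribosomal RNA gene *CT010467.1* had an sgRNA estimate of -1.15 that did not pass (adjusted p = 1, and 0.0935 with the block), and its shares overlapped between plasmids. Within every pair of the same number and treatment, however, its share was lower with the sgRNA plasmids. In control libraries of replicates 3 to 6 its share was 20.9, 19.7, 47.3 and 28% with the empty vector and 18.6, 17.8, 20.2 and 19.7% with sgRNA. After isoproterenol its share was 41.6, 22.1, 51.8 and 31.7% against 24, 11.7, 20 and 28.7%. With its share as a covariate the members' median was -0.05, so the sign of the median turned.

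*Atf3* and *Ppp1r15a* had the highest sgRNA estimates. *Atf3*, a repressor and activator induced by many stresses, was at 22.6, 26.1, 26.9 and 18.6 CPM in empty vector control libraries of replicates 3 to 6, and at 36.7, 35.9, 26.3 and 23.4 CPM in sgRNA control libraries. After isoproterenol it was at 24.9, 30.2, 27.1 and 20.4 CPM with the empty vector and 31.5, 42.4, 32.9 and 26.7 CPM with the sgRNA plasmids. It was higher with the sgRNA plasmids in 7 of 8 pairs, although the ranges overlapped. The estimate was 0.38 (SE 0.13, adjusted p = 1), and with the block 0.38 (SE 0.07, adjusted p = 0.0202). With the block and the ribosomal RNA share as a covariate, chosen after seeing the data, it was 0.45 (adjusted p = 0.266). Leaving out each replicate number in turn in the blocked fit gave adjusted p-values from 0.0127 to 0.241, of which only the one without replicate 5 was below 0.05.

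*Ppp1r15a* encodes the phosphatase subunit that ends eIF2α phosphorylation. With the empty vector it was at 47.9, 54.5, 35.4 and 33.1 CPM in control and 38.4, 54.3, 36.0 and 33.8 CPM after isoproterenol. With the sgRNA plasmids it was at 54.1, 65.0, 38.0 and 44.2 CPM in control and 57.6, 68.9, 43.6 and 44.2 CPM after isoproterenol. Every sgRNA library was above the empty vector library of its number and treatment, 8 of 8, and the ranges overlapped. The sgRNA estimate was 0.31 (SE 0.15, adjusted p = 1, and 0.00825 with the block). With the block and the covariate it was 0.31 (adjusted p = 0.393), and with the covariate alone 0.03. Leaving out each replicate number in turn in the blocked fit gave adjusted p-values from 0.0231 to 0.145, and the threshold was missed without replicate 4 and without replicate 6. By the adjusted p alone 0.137% of all tested genes were higher and 0.449% lower with the block, and of the members *Atf3* and *Ppp1r15a* were higher. The part of the ribosomal RNA share in these values was not tested further.

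*Ddit3*, the proapoptotic factor CHOP, had an sgRNA estimate of 0.28 (SE 0.14, adjusted p = 0.133 with the block) and was higher in 6 of 8 pairs. *Nupr1*, a stress-induced chromatin protein, had 0.20 and was higher in 8 of 8 pairs, and *Ddit4* had 0.24, but with the covariate alone these became -0.29 and -0.18. Leaving out 1 library or number without the block gave 0.09 to 0.35 for *Nupr1* and 0.11 to 0.40 for *Ddit4*. *Pdia4* was lower in 8 of 8 pairs at -0.10 and *Calr* in 7 of 8 pairs at -0.11, neither past the test. For the interaction of both factors 0.0% of all tested genes were called higher and 0.0% lower by edgeR, and no member was called by edgeR or DESeq2. No member had an unadjusted p under 0.05, against 52 of all tested genes (0.395%). The members' interaction estimates ranged from -0.21 to 0.25.

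**Figure D4:**
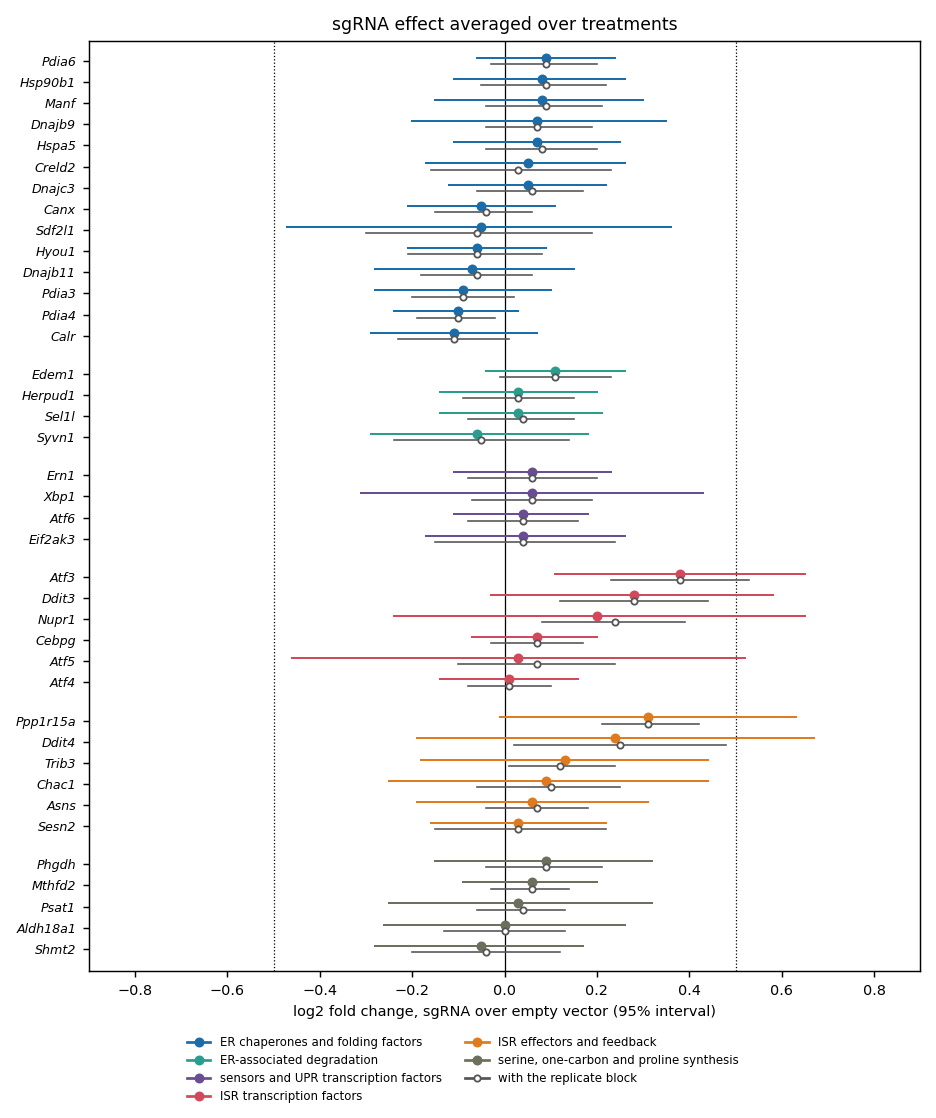
Log2 fold change of sgRNA over empty vector cells on the x axis, averaged over both treatments, for the 39 members grouped by role. Filled points are estimates without and open points with the replicate block, lines are 95% intervals, and dotted lines mark -0.5 and 0.5; *Atf3* at 0.38 and *Ppp1r15a* at 0.31 lie farthest right, and the chaperones lie around zero.

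The replicate number, which the labels give without saying what it stands for, took more of the variance of the median member than either factor did. Its share of the variance of log2 CPM had a median of 55.5% over the members, against 9.23% for isoproterenol and 2.87% for the plasmid. Over all tested genes these medians were 46.8%, 6.79% and 2.38%. The replicate number has 4 levels and each factor 2, which by itself gives it a larger share on average. The residual took 22.2% in the median member. Isoproterenol had a larger share than the replicate number in 5 members, *Pdia4* (80.7% against 11.7%), *Phgdh* (53.0% against 35.0%), *Hyou1* (35.3% against 3.16%), *Ern1* (29.6% against 22.1%) and *Sesn2* (25.5% against 4.19%). In *Hyou1*, *Ern1* and *Sesn2* the residual share was larger still, at 47.6%, 34.4% and 68.9%. In the test of the replicate number 13 of the 39 members were called, against 31.7% of all tested genes, a share near the background. The range between replicate means was 0.29 on the log2 scale in the median member and 0.45 in the median gene. Several cell type markers were called for the replicate number too. Of the brown adipocyte markers 6 of 8 were called, with *Cidea* at a range of 1.9 and *Adipoq* at 0.88, and of the preadipocyte markers 2 of 3 tested, *Ly6a* at 3.02 and *Col1a1* at 2.96. The immune marker *Cd68* had a range of 0.83, the muscle marker *Acta1* one of 1.27 and the ribosomal RNA gene one of 1.38, all called. Their part in the members' ranges was not tested. By role, those called were 4 of 6 transcription factors and 4 of 6 effectors of the integrated stress response, 2 of 5 enzymes, 1 of 4 sensors and transcription factors of the unfolded protein response, 2 of 14 chaperones and 0 of 4 degradation genes. Whether the roles differ in this was not tested.

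*Atf5*, a relative of ATF4 linked to mitochondrial stress, had the widest range of replicate means, 1.02 on the log2 scale (adjusted p = 7.08e-06). It was at 95.4 to 120 CPM in the 4 libraries of replicate 5 and at 41.4 to 65.3, 56.5 to 76.5 and 48.3 to 67.1 CPM in those of replicates 3, 4 and 6. The libraries of replicate 5 thus lay above all others in every group. *Dnajb9*, a cochaperone that restrains IRE1, was also highest there, at 33.3 to 40.4 CPM, and at 21.9 to 29.0 CPM elsewhere.

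*Nupr1* had a range of 0.99 (adjusted p = 8.9e-06) and was at 60.3 to 74.2 CPM in replicate 3 and 72.7 to 100 CPM in replicate 4. In replicates 5 and 6 it was at 32.7 to 51.7 and 44.6 to 49.6 CPM. *Xbp1* had a range of 0.68 (adjusted p = 8.13e-06), with 66.5 to 94.0 and 75.0 to 88.7 CPM in replicates 3 and 4 and 46.2 to 56.1 and 45.5 to 57.8 CPM in replicates 5 and 6. *Psat1* and *Trib3* likewise had higher means in replicates 3 and 4, with ranges of 0.57 and 0.62. *Ddit4* had a range of 0.93 and *Ddit3* one of 0.60, and their highest means were in replicate 4, at 42.5 and 51.0 CPM. *Hyou1* and *Sesn2* varied least by replicate number, with ranges of 0.07.

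**Figure D5:**
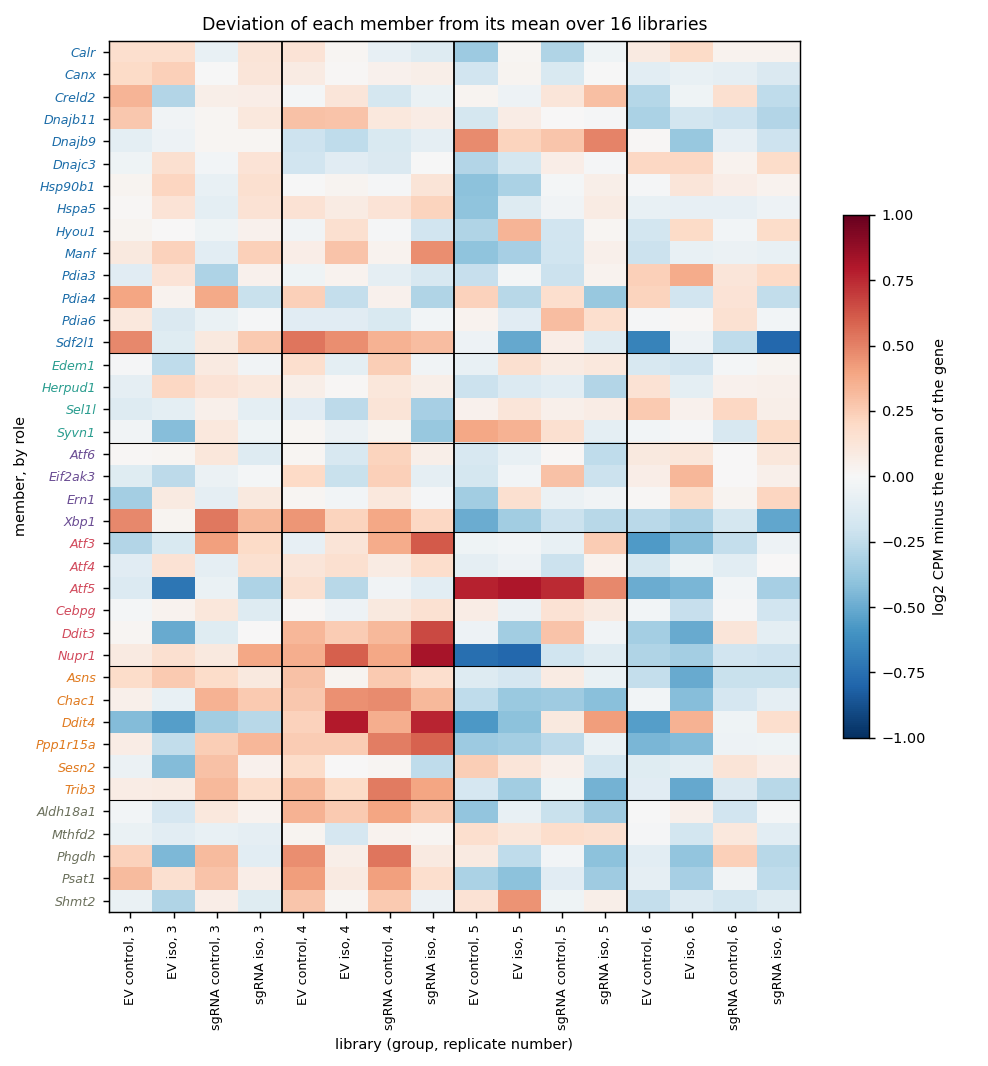
Log2 CPM of each member minus its mean over the 16 libraries, as colour, with members as lines grouped by role and libraries as columns ordered by replicate number and group. *Atf5* is high in the columns of replicate 5, and *Nupr1*, *Xbp1*, *Psat1* and *Trib3* are higher in the columns of replicates 3 and 4 than in those of 5 and 6.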

How the data were processed

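The submitters' processing notes name bcl2fastq, cutadapt, Salmon and DESeq2, without versions, and the build GRCm38. Per the study's methods, reads were quantified against the GENCODE M22 transcriptome or M22 with RNAcentral; which of them was used for this table, and whether strand was used, is not given in the sources used here. The authors deposited estimated counts per gene, as whole numbers and not normalized, for 16 libraries and 54347 genes. Groups were taken from the sample titles.

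Counts were kept by filterByExpr (minimum count 10, minimum total 15; 13150 genes), scaled by TMM and fitted to the 4 group means over all libraries with glmQLFit of edgeR 4.0.16 in R 4.3.3. Contrasts were tested two-sided by glmQLFTest with Benjamini-Hochberg adjustment over all tested genes; the code was tested on simulated data. RPKM values used merged exon lengths from GENCODE M21, also on GRCm38. The plotted log2 CPM used a prior count of 2. Whether replicate numbers pair the libraries was checked on deviations of log2 CPM from group means, with replicate 3 lowest at 0.224 and replicate 4 highest at 0.613, and from -0.512 to 0.516 between different numbers. Every same-number pair was above 0.1, so the block is given as an alternative, beside DESeq2 1.42.0, other filters and scalings, a ribosomal RNA covariate and leaving out libraries.

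Named genes were all members, the called genes of a list of other pathway genes (at most 8 in each direction), *Vldlr*, *Gm15551*, *Ucp1* and the ribosomal RNA gene. Cell type markers had a list of their own, and those named singly from it were chosen after their values were seen. The members and lists were chosen with earlier results of these data known.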

Additional observations from a re-analysis of the deposited data

Results flagged for a closer look

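In each of the 156 sets of 4 libraries formed by 39 members and 4 groups, the gap between the highest or lowest library and its neighbour was divided by the range of the set. In 11 sets it exceeded Dixon's 95% critical value for 4 values, which chance exceeds in about 1 in 20 sets. Of these libraries 6 were of replicate 5 and 3 of replicate 4.

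The empty vector control library of replicate 5 was low for *Calr* at 317 CPM, with the others at 435 to 458 CPM, and for *Hsp90b1* at 404 CPM, with the others at 531 to 545 CPM. The same library was high for *Syvn1* at 33.4 CPM, against 24.9 to 25.8 CPM. It had 47.3% of its counts on the ribosomal RNA gene, and the part of that share in these values was not tested. *Atf5* was at 115 CPM in the sgRNA control library of replicate 5 and at 65.3 to 67.1 CPM in the others. In the sgRNA isoproterenol library of replicate 5 *Pdia6* was at 147 CPM, against 128 to 130 CPM, and *Herpud1* at 28.2 CPM, against 35.8 to 37.0 CPM.

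In replicate 4 *Ddit3* was high in both stimulated libraries, at 46.0 CPM with the empty vector (others 27.2 to 30.3 CPM) and at 60.9 CPM with the sgRNA plasmids (others 35.9 to 38.7 CPM). *Ddit4* was at 33.8 CPM in the empty vector control library of replicate 4, against 19.3 to 21.3 CPM. *Pdia4* was at 173 CPM in the empty vector control library of replicate 3, against 154 to 156 CPM, which makes the control mean higher. The stimulated empty vector library of replicate 3 was also the highest of its group, at 135 CPM, which makes the stimulated mean higher too. *Pdia6* was at 132 CPM in the empty vector isoproterenol library of replicate 6, against 119 to 121 CPM.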

How the results depend on the processing

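With the replicate number as a block (replicate block), the genes called for isoproterenol were 749 instead of 349 in the average over plasmids, 588 instead of 109 in empty vector cells and 513 instead of 92 in sgRNA cells, and for the sgRNA effect 35 instead of 0. No member gained or lost a call by it. By the adjusted p alone the averaged count was 590, and the members passing were 2 in the average, 1 in empty vector cells and 1 in sgRNA cells. A test against the bound of 0.5 gave 63, 25 and 27 genes and no member. DESeq2's Wald test gave 221 genes in empty vector cells, 177 in sgRNA cells and 10 for the sgRNA effect. Without the filter on low counts the sgRNA effect had 10 genes. With a covariate for the ribosomal RNA share there were 174 genes in empty vector cells and 4 for the sgRNA effect, and the sgRNA estimates turned to -0.29 for *Nupr1*, -0.18 for *Ddit4* and -0.10 for *Trib3*. A further 3 alternatives were chosen after seeing the data. Leaving out the 3 libraries with over 40% ribosomal RNA gave 34 genes in empty vector cells and 1 for the sgRNA effect, and turned *Canx* under isoproterenol and *Ddit4* under sgRNA to -0.01. With the block as well, the counts were 635, 403, 577 and 24, and 1 for the interaction instead of 0. With block and covariate they were 730, 567, 538 and 14, and 1 for the interaction, and *Ddit4* under sgRNA was -0.11. In these 2 fits 1 member was called in empty vector cells, *Ddit4* (0.64, adjusted p = 0.0049, and 0.62, adjusted p = 0.00276). Leaving out single libraries or replicate numbers without the block gave 120 to 465 genes in the average and 35 to 181 in empty vector cells. It gave 29 to 98 in sgRNA cells, 0 to 2 for the sgRNA effect and 0 for the interaction. With the block, leaving out a number gave 607 to 752, 418 to 544, 348 to 427, 16 to 26 and 0 to 1 in the same order. For the replicate number, which had 4174, it gave 2098 to 3840. Members called then were 0 in the average, 0 to 1 with either plasmid (*Pdia4*, for one without empty vector isoproterenol replicate 3 and without sgRNA control replicate 4) and 7 to 13 for the replicate number. *Pdia4* kept an adjusted p under 0.05 in all 24 such fits of the averaged effect (-0.49 to -0.42) but without the block in 10 of 20 within either plasmid, and *Phgdh* in 6 of 20 without the block (-0.50 to -0.38) and 4 of 4 with it. Of 1575 other values, from refits of 45 named results, 1467 counted as unchanged. For a gene this means the same direction and side of the threshold, and for the members' median a shift below the SD between pairs. Depth and 4 libraries a group limit what small changes could be seen, and the causes of these shifts were not tested.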
